A study of Mus musculus with 12 samples.

Results

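The genes described here are 9 targets of peroxisome proliferator-activated receptors (PPARs) and genes of fatty acid use in the heart: Acot1, Acot2, Pdk4, Ucp3, Angptl4, Cpt1a, Cpt1b, Acadm and Cd36. They were followed through every probe set that the platform annotation assigns to 1 of them alone, which gave 15 of the 34945 probe sets that name a single gene, and 8 of the 9 genes had at least 1. Cpt1b, the muscle form of carnitine palmitoyltransferase 1, shares its probe set with Chkb and Gm44502 and has no measurement of its own. Of the 15 probe sets, 14 were bright enough to be tested, and the exception was a dim second probe set of Angptl4.

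PPARs are nuclear receptors that pair with retinoid X receptors and are switched on by fatty acids. PPARα and PPARδ drive the genes with which cardiomyocytes take up, activate and oxidize fatty acids, the main fuel of the adult heart, and their targets are known to be higher in fasting. Pdk4 and Ucp3 are among the targets that respond most readily in heart and skeletal muscle, whereas Acadm encodes an enzyme of the oxidation spiral itself.

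RNA from 12 mouse hearts was hybridized to Affymetrix mouse genome arrays, with 1 array per mouse. All mice were of the C57BL/6 strain and 8 to 9 weeks old. The groups were 3 ILKR211A Tg mice (Tg R211A), 3 ILKS343D Tg mice (Tg S343D) and 6 wild type littermates (WT), and each Tg group over-expresses a mutated human integrin-linked kinase (ILK) in the heart only. R211A lies in the pleckstrin homology domain of ILK and resists activation, and S343D is the constitutively active form. The sources used here do not say how many founder lines each group represents. The WT mice carry a pair of title sets, called WT set 1 and WT set 2 here, with 3 hearts each, and no source says which set belongs to which line. Hearts 1 to 6 hold Tg S343D and WT set 1, and hearts 7 to 12 hold Tg R211A and WT set 2. Line and heart number therefore cannot be told apart in Tg R211A against Tg S343D, and what the numbers stand for (order of collection, of hybridization or neither) is not stated. Mouse 1 of WT set 1 is labelled male and the others female, and its label alone names the left ventricle, where the others name only the heart. The methods of the study describe hybridizations of R211A mice with and without infarction, whereas the labels name 3 genotypes and no operation, so no comparison by operation was made.

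The deposited values are signal intensities with the same trimmed mean on every array. Ilk checked the labels, at 8223 to 9553 in Tg R211A hearts, 3258 to 4016 in Tg S343D hearts and 551 to 657 in WT hearts. The 7 markers of ventricular cardiomyocytes were all bright, with summed signals of 78790 to 86580 in Tg R211A hearts, 72050 to 79470 in Tg S343D hearts, and 75060 to 89910 in WT set 1 and 75900 to 89470 in WT set 2. None of the 6 markers of skeletal muscle passed the filter. The 4 atrial markers varied within every group, with summed signals of 2608 to 20080 in Tg R211A hearts, 1835 to 20840 in Tg S343D hearts, 2541 to 12620 in WT set 1 and 2843 to 15900 in WT set 2. In bulk tissue, fewer cells of a type and less RNA per cell cannot be told apart.

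PPARs with their partner bind repeats of a short element whose core is AGGTCA. The 250 bases before the annotated start are shown for 3 members, the variable Ucp3 and Pdk4 and the steady Acadm, so that their values can be read beside the letters. The sequences are from RefSeq on GRCm38.p6, 5′ to 3′ along the strand of the gene. Capitals mark AGGTCA or its reverse complement TGACCT.
Ucp3, chr7:100472741-100472990, plus strand: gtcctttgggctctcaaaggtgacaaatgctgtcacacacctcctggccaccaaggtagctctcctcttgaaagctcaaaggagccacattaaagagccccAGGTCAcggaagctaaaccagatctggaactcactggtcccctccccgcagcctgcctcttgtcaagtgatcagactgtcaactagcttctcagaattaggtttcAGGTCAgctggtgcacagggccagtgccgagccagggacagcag
Pdk4, chr6:5496279-5496528, minus strand: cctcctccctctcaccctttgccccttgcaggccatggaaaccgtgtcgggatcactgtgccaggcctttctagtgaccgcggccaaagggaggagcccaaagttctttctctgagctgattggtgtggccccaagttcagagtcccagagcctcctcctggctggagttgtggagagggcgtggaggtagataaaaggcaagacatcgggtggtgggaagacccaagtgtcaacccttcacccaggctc
Acadm, chr3:153944644-153944893, minus strand: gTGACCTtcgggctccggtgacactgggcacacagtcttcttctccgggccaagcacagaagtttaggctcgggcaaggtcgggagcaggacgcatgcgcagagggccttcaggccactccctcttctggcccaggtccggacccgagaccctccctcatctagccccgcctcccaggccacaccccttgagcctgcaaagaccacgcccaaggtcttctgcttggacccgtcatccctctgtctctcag
In Ucp3 the matches begin at positions -149 and -44 from the start on the strand of the gene. Single matches on the opposite strand begin at -249 in Acadm, -94 in Cpt1a and -228 in Cd36. The windows of Cpt1a and Cd36 lie inside the annotated span of the gene, so their positions count from an internal start. Acot1, Acot2 and Pdk4 had none in this window. AGGTCA was found on either strand in 14.0% of all 32851 promoter windows of this length. The element AGGNCA repeated in tandem with 1 base between the copies was found in none of the 7 member promoters, against 0.338% of all windows, and the forkhead letters GTAAACA in none, against 3.17%. Angptl4 and Cpt1b had no promoter entry. These matches describe letters in the windows only.

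In Tg R211A hearts, 0 of the 8 measured members passed an adjusted p of 0.05 against WT by limma. The share of all 11189 genes that passed was 0.206%. The log2 fold changes were -0.71 for Pdk4, -0.47 for Ucp3, -0.42 for Angptl4, -0.35 for Acot1 and -0.33 for Acot2. Cpt1a at 0.03, Cd36 at 0.01 and Acadm at -0.01 were near 0. Read from the brightest probe set of each gene, Acot2 and Pdk4 were lower at an unadjusted p under 0.05 and none was higher. This is 2 of 8 members where 7.52% of all genes passed in either direction. In no member did the hearts of the groups fail to overlap in this probe set, against 4.18% of all genes. The dimmest probe sets of Cd36 and Cpt1a lay below WT without overlap (unadjusted p = 0.0195 and 0.0276 by limma). The probe set that names both Acot1 and Acot2 did so too (unadjusted p = 0.00339 by limma). The median over the 8 members was -0.34, against -0.00143 over all genes. With the same-numbered mice of a range of heart numbers taken as pairs, a fit added after the data were seen, the median was -0.0504. Pdk4 was then at -0.30 on the log2 scale, with the lowest adjusted p of the members (0.452 by limma).

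Single mice carried part of the differences in Tg R211A hearts. Without mouse 2 of WT set 1, which was highest in Pdk4, Ucp3 and Angptl4, the median over the members was -0.18, with Angptl4 at -0.06 and Ucp3 at -0.295. Without mouse 2 of Tg R211A, the median was -0.204, with Angptl4 at -0.11 and Ucp3 at -0.31. Angptl4 was at -0.71 without mouse 1 of Tg R211A and at -0.68 without mouse 3 of WT set 2, and Acot1 was at -0.14 without mouse 3 of Tg R211A. Over all mice left out in turn, the median lay between -0.413 and -0.18 and Pdk4 between -1.01 and -0.506.

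Pdk4 phosphorylates and inhibits the pyruvate dehydrogenase complex and so spares glucose when fatty acids are burnt. Its signal was 3222, 1894 and 1612 in Tg R211A hearts, 3250, 4673 and 2940 in Tg S343D hearts, 4552, 5335 and 4220 in WT set 1 and 3981, 2939 and 1557 in WT set 2. The lowest value of all was that of a WT heart, mouse 3 of set 2, and the highest that of mouse 2 of set 1, so both Tg groups lay inside the range of the WT hearts. The log2 fold change in Tg R211A against WT was -0.71 (standard error 0.316, adjusted p = 0.641 by limma), a ratio of 0.611 with a mean signal of 2243 ± 860 (SD, n = 3) against 3764 ± 1334 (SD, n = 6). Against WT set 2 alone, which shares its range of heart numbers, it was -0.30 (adjusted p = 0.91). Against WT set 1 alone it was -1.13.

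Ucp3 is a carrier of the inner mitochondrial membrane that is found in muscle and heart. Its brighter probe set gave 461, 306 and 393 in Tg R211A hearts, 741, 784 and 706 in Tg S343D hearts, 522, 959 and 626 in WT set 1 and 528, 423 and 308 in WT set 2. Every Tg S343D heart was above every Tg R211A heart, while both groups overlapped with WT. The log2 fold change was -0.47 in Tg R211A against WT (adjusted p = 0.722 by limma) and -0.10 against WT set 2 alone (adjusted p = 0.965). In Tg R211A against WT set 1 alone it was -0.83. In Tg S343D against WT it was 0.49 (standard error 0.247, adjusted p = 0.995), and 0.13 against WT set 1 alone (adjusted p = 0.99). In Tg S343D against WT set 2 alone it was 0.86. The second probe set of Ucp3 gave -0.28 in Tg R211A and 0.47 in Tg S343D against WT.

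Angptl4 is a secreted inhibitor of lipoprotein lipase and so limits the uptake of fatty acids from circulating triglycerides. It was at 118, 50.9 and 79.9 in Tg R211A hearts, 243, 256 and 253 in Tg S343D hearts, 80.1, 352 and 104 in WT set 1 and 139, 76.0 and 41.7 in WT set 2. The Tg S343D hearts lay close together and above 5 of the 6 WT hearts, and mouse 2 of WT set 1 was above them all. Against WT the log2 fold change was 1.26 in Tg S343D hearts (standard error 0.465, adjusted p = 0.995 by limma), with means of 251 ± 7.09 (SD, n = 3) against 132 ± 112 (SD, n = 6). An exact permutation test, two-sided, gave p = 0.107 for this difference. Against WT set 1 alone it was 0.81, with an interval of -0.26 to 1.88, and against WT set 2 alone it was 1.72. In Tg R211A hearts it was -0.42 against WT, 0.04 against WT set 2 alone and -0.87 against WT set 1 alone. The second probe set of Angptl4 was between 0.277 and 4.41 in all hearts, under the limit of 43.5 set for testing.

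**Figure D1:**
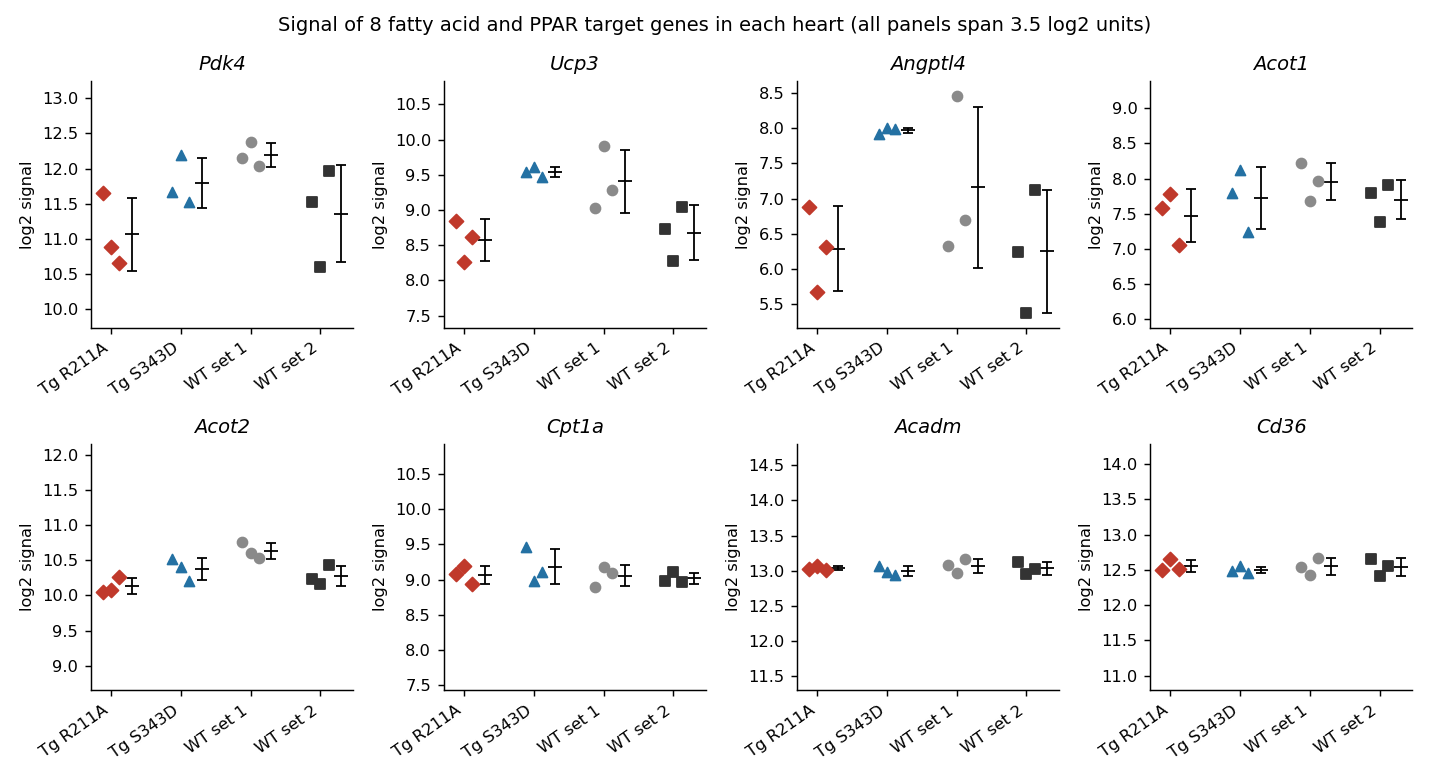
Signal of the brightest probe set of 8 genes in each of 12 hearts, on a log2 scale with every panel spanning the same number of log2 units. Points are single hearts of Tg R211A, Tg S343D, WT set 1 and WT set 2, from left to right, and the bar beside them gives the mean and SD (n = 3). Pdk4, Ucp3 and Angptl4 spread over much of their panels, also within WT, whereas Acadm and Cd36 lie almost flat.

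Acot1 and Acot2 encode the cytosolic and the mitochondrial long-chain acyl-CoA thioesterase, which cut acyl-CoA into fatty acid and coenzyme A. The genes neighbour each other on chromosome 12 and are alike in sequence, and 1 probe set names both, so signals could be shared between them. Acot2 was at 1056, 1085 and 1226 in Tg R211A hearts, 1468, 1351 and 1185 in Tg S343D hearts, 1739, 1550 and 1481 in WT set 1 and 1382, 1209 and 1145 in WT set 2. Tg R211A hearts were low but overlapped with WT set 2, and the highest values were those of WT set 1. The log2 fold change in Tg R211A against WT was -0.33 (standard error 0.116, adjusted p = 0.495 by limma), and -0.15 against WT set 2 alone (adjusted p = 0.833). Against WT set 1 alone it was -0.50 (adjusted p = 0.0688 by limma). The other probe set of Acot2 gave -0.29 against WT.

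Acot1 was at 191, 220 and 133 in Tg R211A hearts, 223, 279 and 152 in Tg S343D hearts, 297, 206 and 249 in WT set 1 and 241, 221 and 167 in WT set 2. All groups overlapped, and the log2 fold change in Tg R211A against WT was -0.35 (standard error 0.204, adjusted p = 0.76 by limma). The probe set that names both genes gave 410, 406 and 442 in Tg R211A hearts, 566, 647 and 443 in Tg S343D hearts, 669, 572 and 532 in WT set 1 and 591, 518 and 473 in WT set 2. Here every Tg R211A heart was below every WT heart. The log2 fold change was -0.41 (standard error 0.116, adjusted p = 0.309 by limma), or -0.33 against WT set 2 alone (adjusted p = 0.621). The exact permutation test, two-sided, gave p = 0.0119 against all WT, the smallest that 3 mice against 6 allow.

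Cpt1a, Cpt1b, Acadm and Cd36 stand for the route of the fatty acid itself. Cd36 carries it across the cell membrane, the CPT1 enzymes form acylcarnitine for entry into mitochondria, and Acadm, the medium-chain acyl-CoA dehydrogenase, opens the oxidation of medium-chain acyl-CoA. Acadm was at 8275 to 8581 in Tg R211A hearts, 7901 to 8622 in Tg S343D hearts and 7929 to 9171 in WT hearts. The log2 fold change was -0.01 in Tg R211A against WT (interval -0.14 to 0.11) and -0.05 in Tg S343D against WT (interval -0.17 to 0.07). The brightest probe set of Cd36 was at 5811 to 6461 in Tg R211A hearts, 5641 to 6011 in Tg S343D hearts and 5443 to 6532 in WT hearts, with log2 fold changes of 0.01 (interval -0.13 to 0.15) and -0.05 (interval -0.19 to 0.09). Both differences were smaller than the spread between hearts in each line.

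The probe sets of Cd36 were not alike in every heart. In the dimmest, every Tg R211A heart, at 1510, 1478 and 1557, was below every WT heart, at 1605 to 1910, with a log2 fold change of -0.18 (adjusted p = 0.548 by limma). Against WT set 2 alone it was -0.11 (adjusted p = 0.824 by limma). In this probe set every WT set 1 heart was also above every WT set 2 heart, with a log2 difference of 0.14. Groups of Tg R211A and WT did not overlap in 4.18% of all genes, read from their brightest probe sets. The remaining probe set gave -0.16. For Cpt1a, the liver form of the enzyme, the brightest probe set was at 490 to 583 in Tg R211A hearts, 505 to 705 in Tg S343D hearts and 477 to 581 in WT hearts, with log2 fold changes of 0.03 and 0.15 against WT. A pair of dimmer probe sets gave -0.17 and -0.68 in Tg R211A hearts. In the dimmest every Tg R211A heart, at 33.4, 28.6 and 32.4, was below every WT heart, at 36.1 to 85.3 (adjusted p = 0.6 by limma). Against WT set 2 alone this probe set was at -0.49 (adjusted p = 0.824 by limma). The Tg R211A values there lie under the limit of 43.5, and the direction for Cpt1a thus depended on the probe set. The probe set shared by Cpt1b, Chkb and Gm44502 was at 2986 to 3168 in Tg R211A hearts, 2926 to 3116 in Tg S343D hearts and 2777 to 3310 in WT hearts.

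In Tg S343D hearts, 0 of 8 members passed an adjusted p of 0.05 against WT, where 0.00894% of all genes did. At an unadjusted p under 0.05 Angptl4 was higher, which is 1 of 8 members where 3.79% of all genes passed. In 0 members did the groups not overlap, against 1.99% of all genes. The median over the members was -0.0159, against -0.000772 over all genes. Pdk4 had a log2 fold change of 0.02 (interval -0.66 to 0.69), and in this comparison Acot1 was at -0.10 and Acot2 at -0.08. Against WT set 1 alone, which shares its range of heart numbers, Pdk4 was at -0.40, Acot2 at -0.25 and Acot1 at -0.23 (adjusted p = 0.987 for each by limma). Against WT set 2 alone, Pdk4 was at 0.43 and Acot2 at 0.10. In Acot2 every Tg S343D heart, at 1185 to 1468, was below every WT set 1 heart, at 1481 to 1739. The exact permutation test, two-sided, gave p = 0.1 there, the smallest that 3 mice against 3 allow. The share of all genes without overlap was not counted for this comparison. In other comparisons of 3 hearts against 3 it was 12.2% (WT set 1 against WT set 2) and 14.5% (Tg R211A against Tg S343D). With the same-numbered mice of a range taken as pairs, Acot2 and Pdk4 had the same log2 fold changes as against WT set 1 alone (adjusted p = 0.605 for both by limma). Angptl4 was at 0.81 in that fit (adjusted p = 0.695 by limma).

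Set directly against each other, Tg R211A and Tg S343D hearts differed most in Angptl4 and Ucp3. The log2 difference was -1.68 for Angptl4 (standard error 0.537, adjusted p = 0.402 by limma), a ratio of 0.312, and -0.96 for Ucp3 (standard error 0.286, adjusted p = 0.345), a ratio of 0.513. Pdk4 was at -0.73 (adjusted p = 0.61), and Acadm at 0.04 (interval -0.10 to 0.18). No member passed the threshold, where 0.152% of all genes did. At an unadjusted p under 0.05, Ucp3 and Angptl4 were lower in Tg R211A hearts, 2 of 8 members where 7.85% of all genes passed. The same pair had groups that did not overlap in the brightest probe set, 2 of 8 members against 14.5% of all genes. The dimmest probe set of Cpt1a did not overlap either, at -0.86 (adjusted p = 0.484 by limma), where its brightest was at -0.11. Nor did the probe set that names both Acot1 and Acot2, at -0.38 (adjusted p = 0.453 by limma). With 3 mice against 3, an exact permutation test cannot go below p = 0.1. The median over the members was -0.249, against -0.004 over all genes, and without mouse 3 of Tg S343D it was -0.411. Acot1, at -0.25, lay between -0.491 and -0.0425 with 1 mouse left out. With the same-numbered mice of a range taken as pairs, the lowest adjusted p of the members was 0.67 by limma, in Angptl4. Each range holds 1 line and 1 WT set, so that fit does not compare the lines directly. It estimates the difference of the line effects within ranges, given below.

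The WT sets also differed from each other in the variable members. WT set 1 was above WT set 2 by a log2 difference of 0.83 in Pdk4 (standard error 0.303, adjusted p = 0.529 by limma), 0.73 in Ucp3 (standard error 0.219, adjusted p = 0.444), 0.91 in Angptl4 (standard error 0.499, adjusted p = 0.675) and 0.35 in Acot2 (standard error 0.0994, adjusted p = 0.403). No member passed the threshold between the sets, where 0.0179% of all genes did. Acot2, Pdk4 and Ucp3 had an unadjusted p under 0.05, 3 of 8 members where 7.25% of all genes passed. In Acot2 and Pdk4 the sets did not overlap, 2 of 8 members against 12.2% of all genes. These counts use the brightest probe set of each gene, and in the dimmest probe set of Cd36 the sets did not overlap either. The median over the members was 0.306, against 0.0111 over all genes.

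Single mice carried part of the differences between the WT sets. Without mouse 2 of WT set 1, which was highest in Pdk4, Ucp3 and Angptl4, the log2 difference was 0.26 in Angptl4, 0.48 in Ucp3 and 0.74 in Pdk4. Without mouse 1 of WT set 1, the heart labelled male and left ventricle, Pdk4 was at 0.85 and Ucp3 at 0.92. Over all mice left out in turn, Pdk4 ranged between 0.452 and 1.13 and Acot2 between 0.287 and 0.431, with WT set 1 higher each time.

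With the line effects taken within the ranges of heart numbers, Tg R211A against WT set 2 and Tg S343D against WT set 1, the difference between the line effects was 0.10 in Pdk4 (interval -0.82 to 1.02), -0.23 in Ucp3 (interval -0.90 to 0.43) and -0.77 in Angptl4 (interval -2.29 to 0.75). The difference in Ucp3 between the lines was thus smaller within the ranges than in the direct comparison, at -0.96. No member passed an adjusted p of 0.05, where 0.00894% of all genes did, and none an unadjusted p under 0.05, where 6.88% of all genes did. This fit takes each range as belonging to its line, which the labels do not state.

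**Figure D2:**
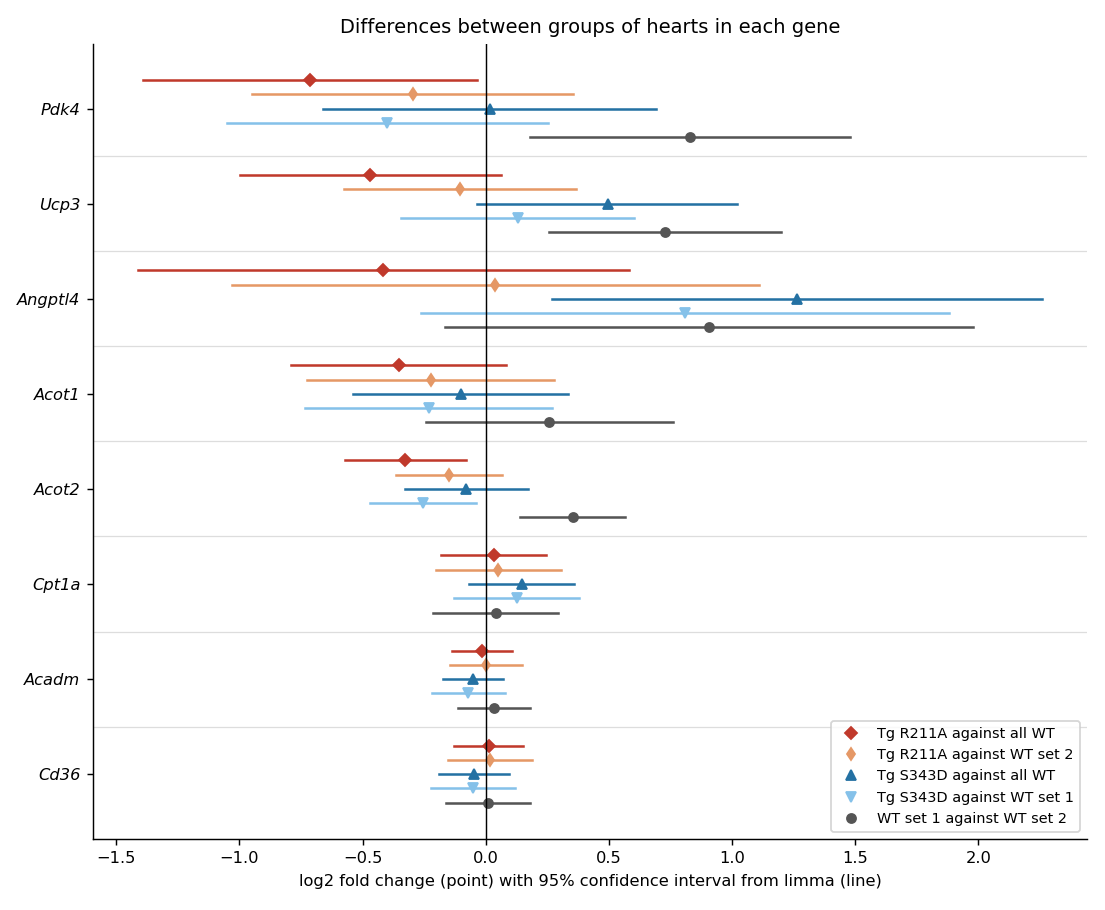
Log2 fold change of the brightest probe set of each gene (point) with its 95% confidence interval from limma (line), for Tg R211A against all WT hearts and against WT set 2, Tg S343D against all WT hearts and against WT set 1, and WT set 1 against WT set 2. For Pdk4 and Ucp3 the difference between the WT sets, 0.83 and 0.73, is larger in size than either line's difference from WT, and the intervals of Acadm and Cd36 are narrow around 0.

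The members differed in how much they varied between hearts of 1 genotype. The standard deviation about the genotype means was 0.823 log2 units for Angptl4, larger than in 99.5% of genes, 0.562 for Pdk4, larger than in 98.0%, 0.434 for Ucp3, larger than in 95.7%, and 0.346 for Acot1, larger than in 91.3%. Acot2 at 0.192 and Cpt1a at 0.153 were near the median of all genes, 0.16. Cd36 at 0.0935 and Acadm at 0.0723 were steady, and 14.9% and 5.63% of genes had a smaller value. These values pool the WT sets and so include the difference between them. About the means of the 4 groups, the values were 0.779 for Angptl4, 0.476 for Pdk4, 0.335 for Ucp3 and 0.349 for Acot1. They were 0.134 for Acot2, 0.161 for Cpt1a, 0.0991 for Cd36 and 0.0753 for Acadm. From the lowest to the highest heart, Angptl4 varied 8.44-fold, Pdk4 3.43-fold and Ucp3 3.14-fold, against 1.2-fold for Cd36 and 1.16-fold for Acadm.

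**Figure D3:**
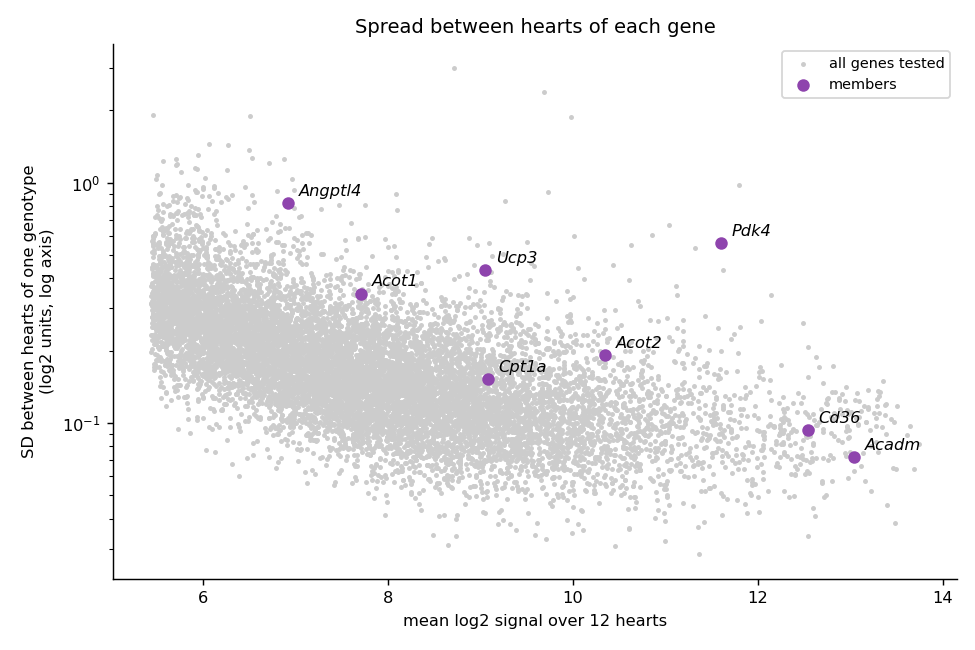
Standard deviation between hearts of 1 genotype (log2 units, log axis) against the mean log2 signal over 12 hearts, for 11189 genes (grey) and the 8 members (purple). Angptl4 at 0.823, Pdk4 at 0.562 and Ucp3 at 0.434 stand at the upper edge for their signal, and Acadm at 0.0723 and Cd36 at 0.0935 lie within the mass of bright genes.

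The deviations of the members from heart to heart were then set against each other, first for the variable ones. Over the 12 hearts, with the genotype mean of each gene subtracted, Ucp3 and Angptl4 correlated with Pearson r = 0.948 and Spearman rho = 0.874. In 100000 shufflings of hearts within genotype, the permutation p of r was 0.00198, or 0.0554 after Benjamini-Hochberg adjustment over the 28 pairs of members. The p of rho was 0.00316 by permutation, or 0.0885 adjusted. The 6 WT hearts were shuffled as 1 group, so a difference between the WT sets enters r, rho and their p. Without the 2 hearts farthest from the median of Ucp3, r was 0.766. With the means of all 4 groups subtracted, r was 0.979 within hearts 1 to 6 and 0.994 within hearts 7 to 12.

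Pdk4 and Ucp3 had r = 0.829 and rho = 0.762, and a permutation p of 0.00629 for r and 0.0152 for rho (adjusted 0.0752 and 0.196). Without the 2 hearts farthest out in Pdk4, r was 0.647, and it was 0.498 within hearts 1 to 6 and 0.864 within hearts 7 to 12. Pdk4 and Angptl4 had r = 0.749 and rho = 0.643, with a permutation p of 0.0329 for r and 0.0537 for rho (adjusted 0.193 and 0.298), and r was 0.459 without the 2 hearts farthest out in Pdk4. For this pair r was 0.405 within hearts 1 to 6 and 0.883 within hearts 7 to 12. Much of the spread in these pairs lay in mouse 2 of WT set 1 at the upper end and mouse 3 of WT set 2 at the lower end. In Angptl4 they deviated from the WT mean by 1.75 and -1.32 log2 units.

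Among the steady members, Acadm and Cd36 had r = 0.799 and rho = 0.72, with a permutation p of 0.00806 for r and 0.021 for rho (adjusted 0.0752 and 0.196), over deviations that stayed within a range of 1.16-fold and 1.2-fold. Without the 2 hearts farthest out in Acadm, r was 0.854. Ucp3 and Acadm had r = -0.0237, and Pdk4 and Acadm r = 0.208. Of the 28 pairs, 21 had a positive r, and 0 passed an adjusted p of 0.05. With each array centred on its own median, Ucp3 and Angptl4 had r = 0.935 and Acadm and Cd36 r = 0.904.

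**Figure D4:**
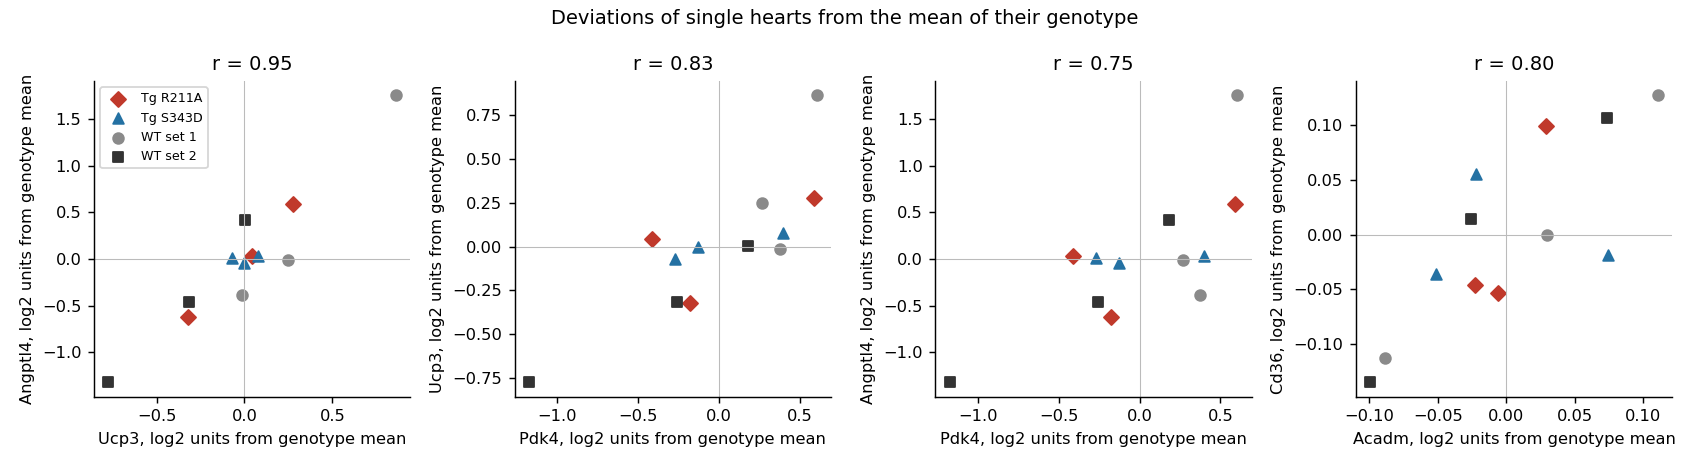
Deviations of single hearts from the mean of their genotype (log2 units) for 4 pairs of members, with Pearson r over 12 hearts above each panel. Ucp3 with Angptl4 (0.948), Pdk4 with Ucp3 (0.829) and Pdk4 with Angptl4 (0.749) have a WT set 1 heart at the upper right and a WT set 2 heart at the lower left, and Acadm with Cd36 (0.799) spans a much smaller range.

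Outside the members, the gene with the highest r over the 12 hearts was Gpam for Ucp3 (0.967), Igf1 for Angptl4 (0.958), Apex1 for Pdk4 (0.96), Glrx2 for Acot2 (0.97) and Echdc2 for Acot1 (0.955). It was Lta4h for Acadm (0.927), Klhl24 for Cd36 (0.937) and Ddx39b for Cpt1a (0.92). Each is the highest of 11181 genes over only 12 hearts. Gpam, the mitochondrial acyltransferase that opens glycerolipid synthesis, is the 1 of these that belongs to the lists of fatty acid genes below.

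Markers of other cells were set beside the variable members. Of 8 adipocyte markers 5 were measured, and Adipoq, Lep and Cidec did not pass the filter. Their summed signal, most of it Fabp4, which endothelial cells also express, was 6782 to 7739 in Tg R211A hearts, 6994 to 7322 in Tg S343D hearts, 7662 to 7885 in WT set 1 and 6628 to 6976 in WT set 2. Mouse 1 of Tg R211A stood apart in Adipoq at 213, where the other hearts were at 14.4 to 71.1. It also stood apart in Ucp1, the brown adipocyte carrier, at 58.2, where the others were at 3.82 to 9.19. Retn and Cidec were highest in this heart too, at 126 and 25.3. Fabp4 and Elovl3, a brown adipocyte marker, were the lowest of all hearts in it, at 6467 and 22.4. Lep, Cidea and Ppargc1a lay within the range of the others. Ucp1 and Elovl3 did not pass the filter either. This mouse also had the highest Pdk4, Ucp3 and Angptl4 of the Tg R211A hearts, and the part of these cells in the result was not tested.

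The atrial marker Myl7, the atrial myosin light chain, was at 4910, 315 and 739 in Tg R211A hearts, 2326, 4709 and 63.6 in Tg S343D hearts, 131, 2534 and 359 in WT set 1 and 3707, 187 and 1583 in WT set 2. In each of the 4 groups the heart with the highest Myl7, which was mouse 1 of Tg R211A, mouse 2 of Tg S343D, mouse 2 of WT set 1 and mouse 1 of WT set 2, also had the highest Pdk4, Ucp3 and Angptl4 of its group. The heart was also the highest in Acot1 in 2 of 4 groups, in Acot2, Cpt1a and Cd36 in 1 each and in Acadm in 0. The lower ranks followed only in part. Ucp3 kept the order of Myl7 in every group but WT set 2, Angptl4 in Tg R211A hearts and WT set 1, and Pdk4 in Tg S343D hearts. Mouse 3 of WT set 2 had more Myl7 than mouse 2 of its set. It was nevertheless the lowest of its set in Pdk4, at 1557, Ucp3, at 308, and Angptl4, at 41.7. The Tg S343D heart with Myl7 at 63.6 had Angptl4 at 253, close to the other hearts of its group. Mouse 1 of WT set 1, the heart labelled as left ventricle, had Myl7 at 131. The part of atrial tissue in the differences of the members was not tested.

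The rest of fatty acid metabolism was read from 11 lists with 137 genes, of which 112 were tested. In Tg R211A hearts against WT 0 rose and 0 fell at an adjusted p of 0.05. At an unadjusted p under 0.05, 2 were higher and 5 lower, 6.25% of the 112, where 7.52% of all genes passed in either direction. In Tg S343D hearts against WT 2 were higher and 2 lower, 3.57% against 3.79% of all genes. In Tg R211A against Tg S343D hearts 6 were higher and 6 lower, 10.7% against 7.85% of all genes. In WT set 1 against WT set 2 11 were higher and 5 lower, 14.3% against 7.25% of all genes, and in each of these comparisons 0 passed the adjusted threshold. For the difference of the line effects within heart ranges, 4 were higher and 2 lower, 5.36% against 6.88% of all genes, with 0 past it. Every gene named from the lists in Tg S343D against WT had an adjusted p of 0.995 by limma.

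Among the receptors and their coregulators, 12 of 15 were tested. Ppara was at 432, 609 and 577 in Tg R211A hearts, 523, 561 and 479 in Tg S343D hearts, 627, 389 and 577 in WT set 1 and 522, 679 and 643 in WT set 2, with log2 fold changes of -0.08 and -0.12 against WT. All groups overlapped, and the same was true of Ppard, with log2 fold changes of 0.07 and -0.06. Both receptors are given for their role, outside the rule for named genes, and Pparg was below the filter. Ppargc1a, the PPAR coactivator that drives mitochondrial genes, was at 819, 805 and 768 in Tg R211A hearts, 864, 952 and 902 in Tg S343D hearts, 834, 837 and 941 in WT set 1 and 922, 944 and 1055 in WT set 2. Every Tg R211A heart was below every other heart. Of all genes, 4.18% did not overlap between Tg R211A and WT, and 14.5% between Tg R211A and Tg S343D. The log2 fold change of Ppargc1a was -0.21 against WT (standard error 0.0744, adjusted p = 0.511 by limma), and Rxrb, a retinoid X receptor, had 0.24 (adjusted p = 0.616). Rxrb was at 0.36 (adjusted p = 0.41) and Ppargc1a at -0.18 (adjusted p = 0.59) in Tg R211A against Tg S343D hearts. For the difference of the line effects within heart ranges they were at 0.39 and -0.34 (adjusted p = 0.706 and 0.551 by limma). In WT set 1 against WT set 2, Ppargc1a was at -0.16 (adjusted p = 0.631 by limma). In Tg S343D hearts against WT, Ppargc1b, a relative of Ppargc1a, was at -0.12 and Rxra, another retinoid X receptor, at -0.15.

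In the supply of fatty acids, 13 of 14 genes of uptake and activation and 15 of 16 of triglyceride storage were tested. In Tg R211A hearts against WT, Plin3, a lipid droplet coat protein, was at -0.25 on the log2 scale (adjusted p = 0.57 by limma) and Acsl6, an acyl-CoA synthetase, -0.42 (adjusted p = 0.763). Vldlr, a lipoprotein receptor, and Dgat2, which completes triglycerides, were both at -0.18 (adjusted p = 0.738 and 0.675). In Tg S343D hearts against WT, Mgll, the monoglyceride lipase, had -0.28 and Fabp5, a fatty acid binding protein, 0.20. Dgat2 was at -0.16 and Fabp3, the fatty acid binding protein of heart, at -0.10. In Tg R211A against Tg S343D hearts, Fabp5 was at -0.33 (adjusted p = 0.403), Acsl6 at -0.54 (adjusted p = 0.62), Hilpda, a droplet protein that restrains lipolysis, at -0.33 (adjusted p = 0.61) and Mgll at 0.21 (adjusted p = 0.682). Between the WT sets the same lists held differences of 0.75 in Acsl6 (adjusted p = 0.4), 0.35 in Plin5, the droplet protein of oxidative tissues (adjusted p = 0.4), 0.33 in Plin2 (adjusted p = 0.498) and 0.30 in Gpam (adjusted p = 0.529), all higher in WT set 1. These WT differences were chosen after their values were seen.

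In the oxidation of fatty acids, all 15 genes of the mitochondrial spiral were tested, and their log2 fold changes lay between -0.085 and 0.14 in Tg R211A and between -0.135 and 0.0424 in Tg S343D hearts against WT. Echs1, the short-chain enoyl-CoA hydratase, had 0.14 in Tg R211A hearts against WT (adjusted p = 0.588 by limma) and 0.24 in Tg R211A against Tg S343D hearts (adjusted p = 0.27). Eci2, an enoyl-CoA isomerase, was at -0.08 in Tg R211A hearts against WT (adjusted p = 0.856). Hadha, a subunit of the trifunctional protein, was at 0.16 in Tg R211A against Tg S343D hearts (adjusted p = 0.554) and at -0.12 in Tg S343D hearts against WT, where Etfb, a subunit of the electron transfer flavoprotein, was at -0.13. Of the 9 tested genes of the carnitine shuttle, Crat, the carnitine acetyltransferase, had 0.15 (adjusted p = 0.676) and Prkaa2, a catalytic subunit of AMPK, -0.13 (adjusted p = 0.714) in Tg R211A hearts against WT. Slc22a5, the carnitine transporter of the cell membrane, was at 0.11 and Acaca, which makes malonyl-CoA, at 0.15 in Tg S343D hearts against WT. Slc22a5 was at -0.16 (adjusted p = 0.696) and Prkaa2 at -0.12 (adjusted p = 0.721) in Tg R211A against Tg S343D hearts.

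Of the 10 tested peroxisomal genes, 3 had an unadjusted p under 0.05 in Tg R211A hearts against WT, all lower, where 7.52% of all genes passed in either direction, with Abcd3, a peroxisomal fatty acid transporter, at -0.29 (adjusted p = 0.406) and Cat, which breaks down hydrogen peroxide, at -0.20 (adjusted p = 0.555). In Tg R211A against Tg S343D hearts Cat was at -0.31 (adjusted p = 0.3) and Pex11a, which divides peroxisomes, at -0.34 (adjusted p = 0.494). In this comparison 4 of the 10 had an unadjusted p under 0.05, all lower, where 7.85% of all genes passed. For the difference of the line effects within heart ranges, 0 of the 10 did, where 6.88% of all genes passed. In Tg S343D hearts against WT, Cat was at 0.11 and Ehhadh, the bifunctional enzyme of peroxisomes, at 0.18. Pex11a was also 0.30 higher in WT set 1 than in WT set 2 (adjusted p = 0.518).

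Relatives of the members were read as well. Of 8 other acyl-CoA thioesterases tested, 0 had an unadjusted p under 0.05 in any of the line comparisons, and their median log2 fold change in Tg R211A hearts against WT was 0.0384. Them4 was at 0.15 and Acot9 at -0.06 in Tg R211A hearts against WT (adjusted p = 0.828 and 0.924 by limma). Acot11 was at 0.14 and Acot6 at -0.14 in Tg S343D hearts against WT, and at -0.21 and 0.18 in Tg R211A against Tg S343D hearts (adjusted p = 0.605 and 0.77). Pdk1 and Pdp2, a kinase and a phosphatase of pyruvate dehydrogenase, were at 0.17 and -0.15 in Tg R211A hearts against WT (adjusted p = 0.79 and 0.832 by limma), where Pdk4 was at -0.71. Mpc1, a subunit of the mitochondrial pyruvate carrier, was at 0.14 and Pdk2, another kinase of the complex, at 0.17 in Tg R211A against Tg S343D hearts (adjusted p = 0.567 and 0.61). In Tg S343D hearts against WT, Mpc1 was at -0.10 and Dlat, a core subunit of the complex, at -0.11. Of the ketone body genes, Bdh1, which interconverts the ketone bodies, stood at -0.53 in Tg S343D hearts against WT (standard error 0.168), where Oxct1, which activates ketone bodies for use, was at -0.11. In Tg R211A hearts against WT, Bdh1 was at -0.22 and Acat1, an acetoacetyl-CoA thiolase, at 0.08 (adjusted p = 0.853 and 0.865). Acat1 was at 0.165 and Oxct1 at 0.13 in Tg R211A against Tg S343D hearts (adjusted p = 0.566 and 0.603). Slc25a5, an adenine nucleotide carrier, was at 0.09 in Tg R211A hearts and -0.12 in Tg S343D hearts against WT (adjusted p = 0.899 in the first), and at 0.21 in Tg R211A against Tg S343D hearts (adjusted p = 0.606). Slc25a27, a relative of the uncoupling proteins, was at -0.20 in Tg R211A hearts against WT and -0.24 in Tg R211A against Tg S343D hearts (adjusted p = 0.875 and 0.785). Slc25a4, the main adenine nucleotide carrier of heart, was at -0.08 in Tg S343D hearts against WT.

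Of 12 tested genes that respond to fasting or glucocorticoids, Txnip, a thioredoxin-binding protein that restrains glucose uptake, was at 2696, 1944 and 2754 in Tg R211A hearts, 4342, 3591 and 4157 in Tg S343D hearts, 1595, 3929 and 3222 in WT set 1 and 2569, 1367 and 1248 in WT set 2. As with Ucp3, every Tg S343D heart was above every Tg R211A heart, and the highest WT heart was mouse 2 of set 1. The lines did not overlap in 14.5% of all genes. The log2 fold change of Txnip was 0.93 in Tg S343D hearts against WT (standard error 0.302) and -0.72 in Tg R211A against Tg S343D hearts (adjusted p = 0.602 by limma). Between the WT sets, Txnip was 0.73 higher in WT set 1 (adjusted p = 0.585 by limma). Fkbp5 and Zbtb16, both glucocorticoid-responsive, were at -0.30 and -0.32 in Tg R211A hearts against WT (adjusted p = 0.67 and 0.747), and Zbtb16 was at -0.33 in Tg S343D hearts against WT. Sgk1, a kinase induced by glucocorticoids, was at 471, 895 and 638 in Tg R211A hearts, 362, 427 and 499 in Tg S343D hearts, 412, 435 and 467 in WT set 1 and 620, 931 and 736 in WT set 2. Hearts 7 to 12 were higher in Sgk1 than hearts 1 to 6 with the exception of mouse 1 of Tg R211A, which lay below the highest Tg S343D heart. The log2 difference was -0.78 in WT set 1 against WT set 2 (standard error 0.199, adjusted p = 0.351) and 0.60 in Tg R211A against Tg S343D hearts (adjusted p = 0.59). Between the WT sets, 1 of the 12 genes was higher in WT set 1 and 5 lower at an unadjusted p under 0.05. Of all genes 7.25% passed there, and these 5 are all the lower genes of the 11 lists. Among them were Per1 at -0.85 and Klf15 at -0.59 (adjusted p = 0.498 and 0.447 by limma).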

How the data were processed

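The deposited values are signal intensities that the authors computed with MAS5 (from GCOS, per the methods of the study) on 12 arrays, linear and with the same mean on every array after the lowest and highest 2% are left out. No source used here gives the MAS5 version, its target value or detection calls. The 64 array controls were dropped from 45101 features. Signals were taken to log2 with nothing added, and 22519 probe sets passed a filter at the median of the mean log2 signals, 5.44, which equals a signal of 43.5. Of 45037 probe sets, 34945 name 1 gene, 932 several and 9160 none. A gene was read from its brightest probe set.

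limma 3.58.1 in R 4.3.3 was fitted with empirical Bayes moderation and a trend on all 12 arrays, in 3 genotype groups, or in 4 groups for the WT sets and the values within heart ranges. Tests were two-sided, with Benjamini-Hochberg adjustment over all probe sets tested and a threshold of 0.05, and intervals cover 95%. Counts over genes use 11189 genes. Single values were tested by exact permutation. The number of arrays limits the precision. The fit was tested on simulated data. Plots used Python 3.11.15 and matplotlib 3.10.9.

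The members and the gene lists were chosen with earlier results of these data known. Named were all probe sets of the members, from each list the genes with the smallest p (2 for each line comparison), the gene nearest to each member and Ilk. Cell type markers, Ppara, Ppard and the list genes given between the WT sets are named outside this rule. RefSeq sequences were matched by symbol for 7 of 9 members. The deposited table names no genome build. Same-numbered mice were also taken as pairs within a range of heart numbers, since the deviations of those mice from their group means correlated with r of 0.119 to 0.179 in hearts 7 to 12 (3 of 3 pairs over 0.1) and 0.0709 to 0.209 in hearts 1 to 6 (2 of 3). This pairing comes from the mouse numbers and the data, and no source states it. Alternatives covered scaling, offset, filters, prior, weights, the arrays fitted, each mouse left out, a replicate block, probe set choice and test.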

Additional observations from a re-analysis of the deposited data

How the results depend on the processing

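The precision was limited by 12 arrays, and the interval of Pdk4 in Tg R211A against WT ran over -1.39 to -0.0365 and that of Angptl4 in Tg S343D against WT over 0.269 to 2.26. The count of members past an adjusted p of 0.05 was 0 in all comparisons of the report under all alternatives run. The lowest adjusted p over them was 0.0688 in Tg R211A against WT (Acot2, against WT set 1 alone), 0.605 in Tg S343D against WT (Acot2, with mice paired) and 0.0547 in Tg R211A against Tg S343D (Ucp3, with only those groups fitted). Over all groups, deviations of same-numbered mice correlated with r of -0.205 to 0.209 (median -0.0182), and 5 of 18 pairs were over 0.1. With the number as a replicate block across all groups, 0 members passed, and the median in Tg R211A against WT was -0.34. With the replicate block within heart ranges, added after the data were seen, 0 members passed, and of all 11189 genes 24 passed in Tg R211A against WT (23 without the block), 1 in Tg S343D against WT (1 without) and 1 in Tg R211A against Tg S343D (17 without). Each range holds 1 line and 1 WT set, so either block by heart range sets each line against the WT set of its range. Tg R211A against Tg S343D thus becomes the difference of the line effects, and its counts of 1 and 17 are of unlike quantities. The replicate block within heart ranges gave the fold changes of the heart range block below.

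The median of the members in Tg R211A against WT was -0.0504 with WT set 2 alone, with the heart range as a block, also added after the data were seen, and with the mice paired. In Tg R211A against Tg S343D it was -0.489 with the probe set of the smallest p. It lay between -0.411 and -0.18 with 1 mouse left out, the first of these without mouse 3 of Tg S343D. With either block by heart range it was 0.0386, the median of the difference of the line effects and not of the direct comparison. The cause was not tested. Of the single values, 43 turned their sign, none of them called.

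In Tg R211A against WT, Acadm was at 0.0206 with centred arrays, and at 0.00281 with WT set 2 alone or the heart range block, where Angptl4 was at 0.0387. Cd36 was at -0.0193 with quantile normalization, -0.00888 with array weights, -0.109 as the mean of its probe sets and -0.183 with the smallest p, and Cpt1a at -0.274 and -0.684 under these last choices. With 1 mouse left out, Cpt1a was between -0.0269 and 0.0981, Acadm between -0.0342 and 0.00776 and Cd36 between -0.0374 and 0.039.

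In Tg S343D against WT, Pdk4 was at -0.0178 with centred arrays, -0.399 with WT set 1 alone or the heart range block, and between -0.219 and 0.151 with 1 mouse left out. Quantile normalization gave 0.0326 for Acadm and 0.00526 for Cd36. With WT set 2 alone Acot1 was at 0.0275 and Acot2 at 0.0986, and with 1 mouse left out they were between -0.303 and 0.138 and between -0.15 and 0.00489. In Tg R211A against Tg S343D, quantile normalization gave -0.0608 for Acadm and -0.0246 for Cd36. The heart range block, there the difference of the line effects, gave 0.00737 for Acot1, 0.106 for Acot2 and 0.103 for Pdk4. Cd36 was at -0.0747 as the mean of its probe sets and -0.153 with the smallest p, and Cpt1a between -0.214 and 0.0254 with 1 mouse left out.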
